A study of Mus musculus with 2 samples.

Results

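First-intron peaks are the DNase-accessible sites of the mouse spleen whose midpoint lay in the first intron of a protein-coding gene. Members were chosen by position alone: the midpoint had to fall in the first intron of the gene's longest transcript, in no annotated exon, and over 1 kb from every protein-coding transcription start site. They numbered 7067 of 79246 peaks in animal 1 and 6141 of 77231 in animal 2, or 8.92% and 7.95% of all peaks (6604 ± 655, SD, n = 2). Peaks in later introns, chosen with the same exclusions, numbered 13215 and 11905 and served as the comparison.

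The libraries came from whole spleen of 2 male mice of the hybrid strain B6CASTF1/J, aged 2 months, supplied by The Jackson Laboratory and not described as treated. Both form 1 group and carry biological replicate numbers 1 and 2, used here as animal 1 and animal 2; they have separate biosample and animal numbers but the same donor label. With 2 animals, the exact paired sign-flip test used for comparisons between intron classes cannot give a two-sided p under 0.5, and it gave 0.5 for each of the 4 comparisons tested, so directions are reported by animal. Because the spleen is a mixture, fewer cells of a type and less accessibility per cell cannot be told apart.

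The start of a gene is followed in most transcripts by a first intron, which is on average the longest and is a common home of enhancers and alternative promoters. DNase I cuts DNA that nucleosomes do not cover, so a peak marks accessible chromatin, and its height is the signal that the authors gave it. A footprint is a short stretch inside accessible DNA that is cut less than its surroundings, as happens where a protein is bound.

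The tissue label was set against marker promoters in both animals. B cell markers had promoter peaks, among them Cd79a with heights of 9.36 and 8.96 and Cr2 with 12.0 and 12.9. Of the T cell markers, Lck stood at 5.02 and 6.96 and Cd3d at 6.22 and 5.22. Cd3g (1.46 and 1.91), Cd3e (0.838 and 0.930) and Cd8a (0.652 and 0.876) were lower, and Cd4 had no promoter peak. Of the endothelial markers, Pecam1 stood at 3.57 and 3.20 and Cdh5 at 2.87 and 2.29, and Tek had none. Of the macrophage markers, Cd68 stood at 2.34 and 1.66 and Spic at 0.566 and 0.407. Csf1r and C1qa had a promoter peak in animal 1 only, and Adgre1 had none. Of the erythroid markers, Klf1 had one in animal 2 only (0.665), and Gata1 and the globin genes Hba-a1 and Hbb-bs had none. The neutrophil markers S100a8, S100a9, Mpo and Elane had none in either animal. Promoter peaks were also present at the neuronal genes Rbfox3 (1.15 and 1.72), Grin1 (0.860 and 1.22) and Snap25 (0.337 and 0.333). Of the hepatocyte genes, Apob had one (0.430 and 0.462), and Alb and Ttr had none. Every height was a whole number of steps, within 0.05 of a step, of 0.00716 in animal 1 and 0.00679 in animal 2. The median first-intron peak held 105 and 131 steps and the lowest 13 and 6. If 1 step is 1 cut, these numbers are the depth behind a peak. The sources used here do not state the unit.

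Of the 6 highest first-intron peaks, 5 are shown first, since they carry the strongest signal of the class; the other, in Zfp516, is not printed. Bases are those of the C57BL/6J reference (mm10), 5′ to 3′ along the strand of the gene, and capitals mark bases inside a footprint in both animals.
Il31ra, chr13:112578161-112578320, minus strand: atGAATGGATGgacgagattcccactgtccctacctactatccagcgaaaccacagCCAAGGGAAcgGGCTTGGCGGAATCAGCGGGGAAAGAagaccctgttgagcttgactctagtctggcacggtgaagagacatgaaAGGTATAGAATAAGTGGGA
Gm20388, chr8:121585461-121585680, plus strand: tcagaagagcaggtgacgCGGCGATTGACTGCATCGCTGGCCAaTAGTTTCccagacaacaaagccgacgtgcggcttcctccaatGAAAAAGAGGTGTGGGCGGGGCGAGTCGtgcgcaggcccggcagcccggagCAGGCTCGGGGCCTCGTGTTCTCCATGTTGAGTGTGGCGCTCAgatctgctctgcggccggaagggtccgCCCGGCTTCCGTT
Mnt, chr11:74832201-74832400, plus strand: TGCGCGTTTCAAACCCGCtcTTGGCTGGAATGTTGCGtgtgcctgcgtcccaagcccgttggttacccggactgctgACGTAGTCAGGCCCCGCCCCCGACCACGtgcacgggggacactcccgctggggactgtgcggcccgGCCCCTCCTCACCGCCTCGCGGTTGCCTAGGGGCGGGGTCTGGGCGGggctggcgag
Csk, chr9:57640481-57640720, minus strand: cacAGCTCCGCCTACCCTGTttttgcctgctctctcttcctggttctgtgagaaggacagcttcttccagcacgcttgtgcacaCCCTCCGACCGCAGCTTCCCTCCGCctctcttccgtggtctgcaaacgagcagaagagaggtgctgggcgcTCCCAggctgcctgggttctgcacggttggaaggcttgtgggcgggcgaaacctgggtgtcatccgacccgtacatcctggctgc
Nr1d1, chr11:98773861-98774140, minus strand: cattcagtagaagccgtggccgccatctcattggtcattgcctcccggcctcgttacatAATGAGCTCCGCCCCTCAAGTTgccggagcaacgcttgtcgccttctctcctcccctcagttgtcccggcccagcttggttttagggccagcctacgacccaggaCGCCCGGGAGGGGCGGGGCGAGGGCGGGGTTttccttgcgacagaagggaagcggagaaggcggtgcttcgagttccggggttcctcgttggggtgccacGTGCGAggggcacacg

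Il31ra encodes a chain of the interleukin-31 receptor. Its peak lay 2421 bp inside the gene and reached 31.0 in animal 1 and 21.1 in animal 2, the highest first-intron peak by mean (26.1 ± 7.01, SD, n = 2). Footprints common to both animals covered 63 of its 160 bases. This site differed in composition from the other 4, with a GC content of 51.2% and 6 CpG dinucleotides. The peaks of Gm20388, Mnt, Csk and Nr1d1 had GC contents of 61.7% to 71.0% and 13 to 24 CpG.

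Mnt encodes a repressor that pairs with MAX in the MYC network, and its peak stood at 14.1 and 16.4. The letters GGGCGGG, the GC box recognised by SP and KLF factors, occurred on either strand at positions 90 to 96, 174 to 180 and 185 to 191 of the Mnt sequence, each touching a footprint of both animals. Positions are counted from 1 at the 5′ end. Nr1d1, which encodes the circadian repressor REV-ERBα, stood at 13.8 and 15.9. Its sequence held the same letters at positions 175 to 181 and 186 to 192, again each touching a footprint. In both sequences the E-box CACGTG also touched a footprint, at positions 102 to 107 in Mnt and 262 to 267 in Nr1d1. Csk, the kinase that restrains Src family kinases in lymphocytes, stood at 15.3 and 14.8, and its single GC box at positions 195 to 201 touched no footprint common to both animals.

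The peak assigned to Gm20388 stood at 19.0 and 23.7. Gm20388 is an annotated gene model on chromosome 8 whose first intron spans 4384 kb and many other genes. The start site nearest to this peak, 4770 bp away, was that of Map1lc3b. The model held 253 first-intron peaks in animal 1 and 220 in animal 2. Without it, an alternative chosen after seeing the data, 6871 and 5962 members were left and the density ratio given below was 1.47 in place of 1.49.

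The other peaks among the 10 highest lay in Zfp516, a zinc finger gene (13.2 and 18.3), Sh2b3, an adaptor that damps cytokine signalling (13.3 and 14.9), Rai1 (12.2 and 14.2), Hdac7, a class IIa deacetylase (12.0 and 13.1), and Vsir, which encodes the checkpoint receptor VISTA (10.1 and 14.9). Of the 10, Il31ra and Csk were higher in animal 1 and the rest in animal 2. Of all 58277 peaks matched between the animals, 71.6% were higher in animal 2, as were 59.3% of those in first introns.

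The next 3 peaks, of cell type genes, were lower than those printed above but higher than the median first-intron peak (0.752 and 0.889). Pax5 and Runx3 held the highest first-intron peak of the B cell identity and T cell lists, and Cd5l the second highest of the macrophage list.
Pax5, chr4:44706081-44706240, minus strand: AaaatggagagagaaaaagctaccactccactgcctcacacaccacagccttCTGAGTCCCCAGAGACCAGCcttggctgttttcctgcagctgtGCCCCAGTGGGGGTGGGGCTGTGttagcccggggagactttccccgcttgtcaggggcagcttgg
Runx3, chr4:135150521-135150720, plus strand: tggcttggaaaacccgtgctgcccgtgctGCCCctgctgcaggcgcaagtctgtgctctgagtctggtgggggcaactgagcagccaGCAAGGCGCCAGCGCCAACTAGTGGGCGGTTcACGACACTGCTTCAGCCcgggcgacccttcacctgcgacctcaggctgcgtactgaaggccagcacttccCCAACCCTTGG
Cd5l, chr3:87360561-87360740, plus strand: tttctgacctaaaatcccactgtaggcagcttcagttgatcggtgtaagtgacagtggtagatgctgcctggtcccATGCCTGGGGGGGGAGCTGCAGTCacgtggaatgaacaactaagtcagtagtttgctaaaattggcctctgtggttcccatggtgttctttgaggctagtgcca

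Pax5, the factor that maintains B cell identity, had heights of 8.09 and 7.84 at this site, 4306 bp inside the gene. The letters CCCCACCC, a KLF consensus, lay on either strand at positions 106 to 113 and touched a footprint of both animals. Runx3, a factor of cytotoxic T cells, stood at 4.46 and 7.34. Cd5l, a secreted protein of tissue macrophages, stood at 1.22 and 1.53, and the E-box CACGTG at positions 100 to 105 touched the edge of its footprint. The 3 peaks had 2, 11 and 2 CpG.

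First introns held more peaks per base than later introns. Searchable intron, meaning bases outside exons and over 1 kb from a protein-coding start site, came to 199 Mb in first introns and 564 Mb in later ones. First introns had 35.5 peaks per Mb in animal 1 and 30.8 in animal 2, against 23.4 and 21.1 in later introns. The ratio was 1.51 and 1.46 (1.49 ± 0.0379, SD, n = 2). Density was highest in intron 1, at a mean of 33.2 per Mb, and was 25.6 in intron 2, 22.3 in intron 3, 23.1 in intron 4 and 20.8 in introns 5 and later. Intron 4 was slightly denser than intron 3 in each animal, at 24.0 against 23.7 and 22.2 against 20.9, so density did not fall at every position.

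**Figure D1:**
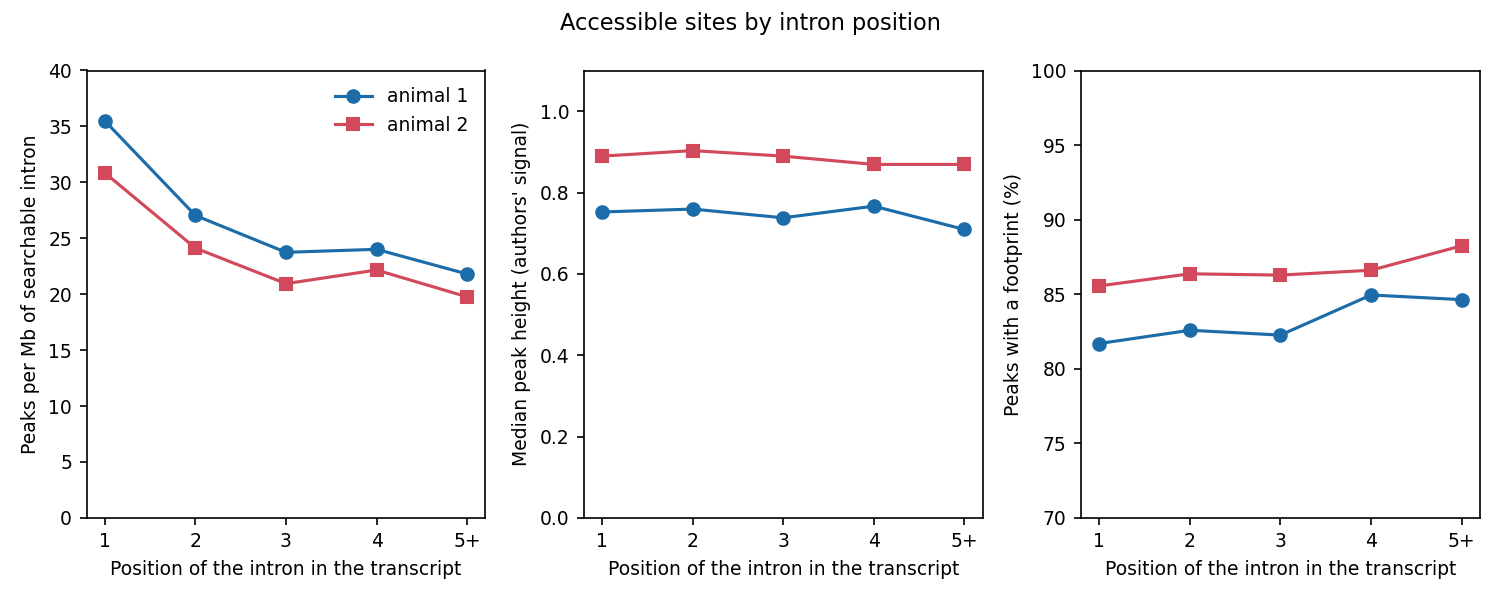
Peaks per Mb of searchable intron, median peak height (the authors' signal) and percentage of peaks with a footprint against the position of the intron in the longest transcript, 1 point per animal. The footprint axis starts at 70%. Density is highest in intron 1 in both animals (35.5 and 30.8 per Mb), while median height is nearly level across positions.

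The excess of first introns varied with distance to the start of the transcript. Between 1 and 2 kb, first introns held 98.2 and 83.0 peaks per Mb and later introns 63.3 and 57.6. Between 10 and 20 kb the values were 37.0 and 32.4 against 31.1 and 29.1. Between 20 and 50 kb first introns were the lower class in both animals, at 30.9 and 26.8 against 31.2 and 28.3, and over 50 kb they were again the denser, at 19.6 and 16.9 against 18.5 and 16.3. Within 20 kb as a whole the ratio was 1.41. By distance to the nearest protein-coding start site of any gene, first introns were denser in all 6 bands in both animals, for example at 20 to 50 kb with 25.2 and 21.7 peaks per Mb against 23.6 and 20.4. First introns before the start codon, which interrupt the 5′ untranslated region, held 38.3 and 33.2 peaks per Mb, and those after it 34.0 and 29.3.

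Height did not separate the classes. The median first-intron peak stood at 0.752 in animal 1 and 0.889 in animal 2, and the median later-intron peak at 0.731 and 0.883. The log2 ratio of medians was 0.04 and 0.01 (0.03 ± 0.02, SD, n = 2). Promoter peaks had medians of 1.73 and 1.97. The 90th percentile of first-intron peaks was 2.49 and 2.90, and that of later-intron peaks 2.35 and 2.96, so the animals differed in which class was higher there.

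The direction of the small difference in medians depended on how position was matched. Among peaks within 20 kb of the transcript start, first-intron peaks were lower in both animals, with a log2 ratio of -0.16 ± 0.01 (SD, n = 2). Between 5 and 10 kb, for example, the medians were 0.809 and 0.984 in first introns against 0.924 and 1.11 in later introns. First-intron medians were lower in both animals in each of the 5 distance bands up to 50 kb. Beyond 50 kb they were 0.645 and 0.794 against 0.645 and 0.767. Matched instead by distance to the nearest protein-coding start site, they were lower in both animals at 1 to 2, 2 to 5 and 10 to 20 kb, and higher in both at 5 to 10 kb (0.813 and 0.984 against 0.809 and 0.957) and over 50 kb (0.544 and 0.659 against 0.516 and 0.597). Against later introns of transcripts that had a first-intron peak, a set chosen by the peaks being compared, the log2 ratio was -0.08 (-0.07 and -0.10).

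**Figure D2:**
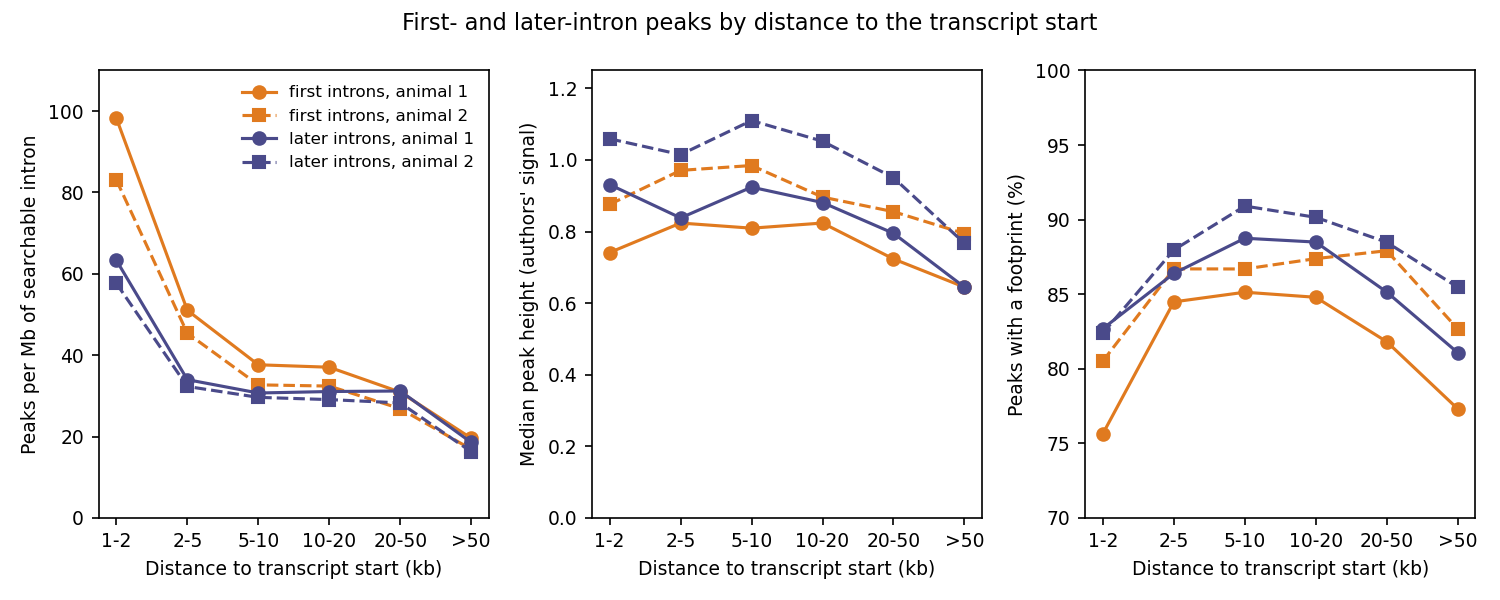
Density of peaks, median height (the authors' signal) and percentage of peaks with a footprint in first introns (orange) and later introns (blue) by distance to the start of the own transcript, with solid lines for animal 1 and dashed lines for animal 2. The footprint axis starts at 70%. First introns are denser up to 20 kb (98.2 and 83.0 against 63.3 and 57.6 peaks per Mb at 1 to 2 kb) and have the lower footprint share in each band in both animals.

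The same comparison was made inside transcripts. Peaks in both classes were found in 1576 transcripts of animal 1 and 1391 of animal 2. The median difference of mean log2 height, first minus later intron, was -0.11 and -0.13 (-0.12 ± 0.02, SD, n = 2). It was small beside its SD across transcripts, which was 1.03 and 1.09. In 44.7% and 44.1% of transcripts the first intron was the higher. With the shorter, more stringent peak list the median difference was -0.03 and had opposite signs in the 2 animals.

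Around the distance limit that defines the class, 218 and 186 first-intron peaks lay in the first 100 bp beyond it, with median heights of 0.720 and 0.917. In the last 100 bp inside the excluded zone there were 269 and 247 first-intron peaks with medians of 0.652 and 0.794. Within 1 kb of the start of another kind of gene lay 202 and 182 members, and 154 and 131 members also lay in a later intron of a second gene.

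Footprints were slightly less frequent in first-intron than in later-intron peaks, though not less frequent than over all peaks (81.4% and 83.5%). At least 1 footprint was found in 81.7% of them in animal 1 (95% Wilson interval 80.8% to 82.6%) and 85.6% in animal 2 (84.7% to 86.4%), where the intervals cover counting error only. Later-intron peaks had 83.8% and 87.3%, a difference of -2.12 and -1.77 percentage points (-1.94 ± 0.246, SD, n = 2). First-intron peaks held 10.4 and 12.0 footprints per kb of peak against 11.0 and 13.0.

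Height is closely tied to the call of a footprint, so the classes were also compared within deciles of height. First-intron peaks had the lower share in all 10 deciles in both animals, with a mean difference of -3.41 and -3.10 percentage points. In the lowest decile the shares were 37.4% against 40.4% in animal 1 and 39.7% against 44.9% in animal 2. In the highest decile they were 99.2% against 99.4% and 99.5% against 99.8%, where nearly every peak had one. Footprints per peak were also lower in first introns in every decile but the highest. There they were higher, at 3.55 against 3.37 in animal 1 and 3.58 against 3.49 in animal 2. First-intron peaks of that decile were also wider, with mean widths of 219 against 209 bp and 198 against 188 bp. The counts per peak do not take width into account.

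**Figure D3:**
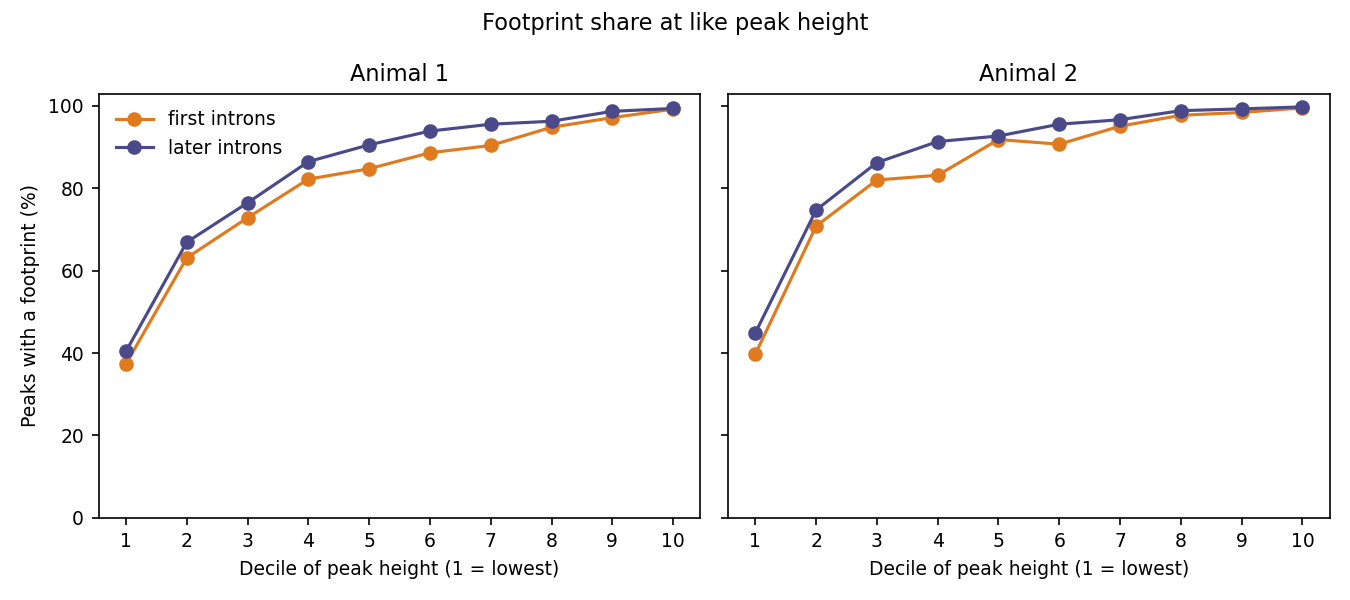
Percentage of peaks with at least 1 footprint by decile of peak height (deciles set over first- and later-intron peaks of each animal), for first introns (orange) and later introns (blue), 1 panel per animal. The share climbs from 37.4% to 99.2% in animal 1 and from 39.7% to 99.5% in animal 2, and the first-intron line lies below the later-intron line in each decile.

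Footprints in first-intron peaks were also narrower. Their median width was 9 bp in animal 1 and 10 bp in animal 2, against 10 and 11 bp in later introns. Footprints of 15 bp or more made up 20.4% and 28.4%, against 25.6% and 34.0%. Of the bases of a peak, 12.3% and 16.1% lay in footprints, against 14.5% and 19.4%. In these shares the animals differed from each other by more than the classes did, and the class order was the same in both.

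Sequence content differed between the classes in windows of 200 bp at peak midpoints. CpG-rich windows, with a CpG ratio observed to expected of 0.6 or more and a GC content of 50% or more, made up 4.49% and 5.88% of first-intron peaks against 2.28% and 2.76% of later-intron peaks. Promoter peaks had 58.7% and 62.5%. CpG-rich first-intron peaks were taller, with medians of 1.04 and 1.13, than other first-intron peaks, with 0.745 and 0.883. They made up 25.4% and 32.3% of the highest 1% of first-intron peaks, against 17.3% and 21.7% in later introns. Repeat content was alike, with 13.7% and 14.3% of bases soft-masked against 13.6% and 14.8%.

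Of the 24 consensus strings searched, 13 were more frequent in first-intron than in later-intron windows in both animals, 8 were less frequent in both and 3 differed in direction between the animals. The GC box GGGCGGG on either strand was in 5.62% and 6.87% of them, 4.03% and 4.65% of later-intron windows and 31.2% and 32.7% of promoter windows. The KLF consensus CCCCACCC, which can overlap a GC-rich box, was in 7.05% and 7.47% against 5.24% and 5.56%. The cyclic AMP response element TGACGTCA was rare, at 0.524% and 0.505%, and 1.69 and 1.82 times as frequent as in later introns. The NF-Y letters CCAATCAG had ratios of 1.31 and 1.21, but 1.14 and 0.910 in footprints. The E-box CACGTG, in 6.72% and 6.98% of promoter windows, had window ratios of 1.11 and 1.14. The rarer strings of NRF1 and YY1 did not follow this order. The NRF1 letters GCGCATGCG, in 1.94% and 1.91% of promoter windows, had ratios of 0.894 and 1.36. The YY1 letters AAGATGGCG, in 1.55% and 1.56% of promoter windows, were found in 0.170% and 0.195% of first-intron windows against 0.318% and 0.386%.

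Letters of factors of lymphoid and myeloid cells went in either direction. ETS letters GGAAGT had window ratios of 1.08 and 1.12, IRF letters GAAANTGAA 1.13 and 1.16, and the octamer ATGCAAAT 1.09 and 1.19. PU.1, which drives myeloid and B cell genes, was searched as GAGGAAGT and found in 8.01% and 7.21% of first-intron windows against 7.18% and 5.89%. The EBF consensus CCCNNGGGA, named for a factor of early B cells, was found in 5.53% and 5.99% against 4.73% and 4.68%. RUNX, as TGTGGTT, gave 9.31% and 8.44% against 8.54% and 8.13%. In footprints, however, the RUNX ratio of first to later introns was 0.975 and 1.07. TCF/LEF, as CTTTGAA, was less frequent in first-intron windows, with ratios of 0.907 and 0.942, as was the E-box CAGGTG, with 0.939 and 0.945. C/EBP, as TTGCGCAA, was rare and had 0.831 and 0.969, and NF-kB, as GGGANTTTC, had 0.935 and 1.11.

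The insulator factor CTCF showed the opposite order. Its core CCANNAGGG was found in 7.27% and 7.87% of first-intron windows, or 514 and 483 windows, against 10.0% and 10.7% of later-intron windows. In the footprints themselves, each widened by 5 bp a side, it was in 1.78% and 2.32% against 3.05% and 3.41%. First-intron peaks with the core were lower than later-intron peaks with it, with medians of 0.867 and 1.06 against 0.953 and 1.28. Among windows without the core, the footprint share was lower in first introns by differences of -1.90 and -1.48 percentage points. Among all peaks the differences were -2.12 and -1.77. The part of CTCF binding in these differences was not tested.

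**Figure D4:**
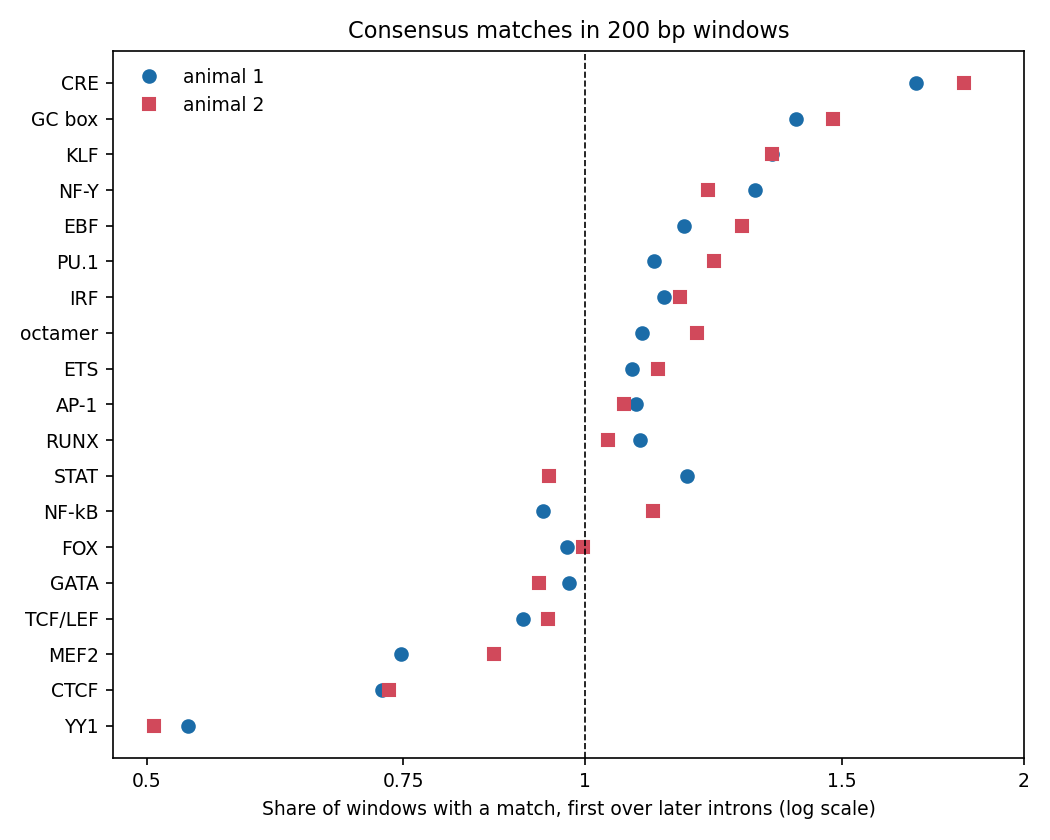
Ratio of the share of 200 bp windows with a match, first-intron over later-intron peaks, for the consensus letters named on the vertical axis, 1 point per animal, on a log scale. Shown are those found in at least 0.3% of later-intron windows of animal 1, without the 3 E-box types. The CRE and GC box points lie to the right of 1 and the CTCF (0.725 and 0.733) and YY1 points to the left in both animals.

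A first-intron peak in both animals was found in 2570 of the 14042 genes with a searchable first intron (18.3%). In animal 1 there were 3169 such genes and in animal 2 2859. Most had few: 1746 and 1606 genes held a single peak, and 320 and 259 held 5 or more. The share of genes with a peak climbed with the searchable length of the intron, from a mean of 2.57% under 1 kb and 10.6% at 1 to 5 kb to 28.6% at 5 to 20 kb, 51.3% at 20 to 50 kb and 61.2% over 50 kb. Median searchable length was 16.4 and 16.9 kb in genes with a peak and 2.57 and 2.67 kb in genes without.

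Genes with a first-intron peak more often had other accessible sites. A promoter peak was present in 86.0% and 87.0% of them, against 58.3% and 60.6% of genes without a first-intron peak. The order was the same in all 5 length bands and in both animals: between 5 and 20 kb, for example, the shares were 87.4% and 87.4% against 65.2% and 67.2%. Among the 12075 genes searchable in both intron classes, a later-intron peak was present in 53.9% and 52.7% of genes with a first-intron peak and in 28.8% and 28.4% of genes without. Still, 1347 and 1250 genes had a first-intron peak and no later-intron peak. Unlike that of promoter peaks, the comparison of later-intron peaks was not split by intron length.

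After Gm20388, the genes with the most first-intron peaks were Cmss1 (21 in animal 1 and 17 in animal 2), Foxp1 (19 and 18), Maml2 (20 and 16), Maml3 (16 and 19), Rora (20 and 15), Hivep2 (18 and 16), Prkce (18 and 14), Myo1e (16 and 15) and Rapgef1 (18 and 13). Foxp1 encodes a forkhead factor needed in B cell development, Maml2 and Maml3 encode Notch coactivators, and Rora encodes a nuclear receptor. Length differed greatly among them, and per searchable Mb Rapgef1 had 309 and 223 peaks and Rora 37.2 and 27.9. Foxp1 also had 38 and 28 later-intron peaks, whereas Cmss1 had none.

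Gene lists were set beside the 18.3% of all genes. List members are few and no test of a list was made. The median gene of the background had 3.88 kb of searchable first intron. Several lists had longer ones, and the share of all genes at 5 to 20 kb, averaged over single animals, was 28.6%. B cell receptor signalling genes had a first-intron peak in both animals in 10 of 12, with a median length of 17.5 kb. Inpp5d, the phosphatase SHIP1, had 3 peaks in each animal and a highest peak of 5.69 and 5.39. Ptpn6, the phosphatase SHP-1, had none in its 2.86 kb, with 3 and 5 later-intron peaks.

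Of the B cell identity genes, 8 of 13 had a peak in both animals, with a median length of 7.55 kb. Pax5 had 5 and 4 peaks in 9.02 kb, and Bach2, a repressor of plasma cell fate, had 12 and 7 with a highest of 4.64 and 4.45. Cd79a and the complement receptor gene Cr2 had no first-intron peak, although both had a promoter peak. Among 7 germinal centre and plasma cell genes, with a median length of 4.55 kb, 3 had one. They included Mef2b, a germinal centre factor, at 3.73 and 3.60, whereas Irf4 and S1pr2 had none.

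A list of lymphoid transcription factors, named for the Ikaros, RUNX and E protein families, had a peak in 6 of its 7 searchable genes over a median length of 12.1 kb. None of the 7 is a RUNX gene. They were Ikzf1, which encodes Ikaros, with 6 and 4 peaks, the E protein gene Tcf3, and the zinc finger, MYB and ETS factor genes Zeb1, Zeb2, Myb, Etv6 and Elf1. Elf1 had 10 and 11 peaks with a highest of 4.32 and 3.80, and Myb had 3 and 2 with a highest of 3.11 and 3.61. Tcf3 had none in 0.538 kb. Rel, which was the single NF-kB or interferon regulatory factor gene with a searchable first intron, had 1 peak at 2.50 and 2.23.

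T cell genes had a peak in 8 of 16, over 9.90 kb. Ccr7, the receptor that guides lymphocytes to T zones, had 2 peaks in each animal, the highest at 4.42 and 5.39. Cd3d and Cd3g had no first-intron peak, although both had a promoter peak. Of MHC class II genes, 4 of 6 had one despite a median of 0.902 kb: the invariant chain gene Cd74 held 5 and 4 peaks with a highest of 10.9 and 11.5, and the class II activator Ciita 2 in each with 2.64 and 2.19. Integrin and migration genes, with a median length of 10.6 kb, had a peak in 7 of 11, among them Itga6 (3 and 6 peaks) and Elmo1 (11 and 10). Itgb1 had none in 18.5 kb.

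Myeloid, red cell and stromal lists had shorter first introns in most cases and are given with their median lengths. The share of all genes with a peak, averaged over single animals, was 2.57% under 1 kb and 10.6% at 1 to 5 kb. List counts need a peak in both animals, which is stricter. Macrophage and monocyte genes had a peak in 3 of 13, over 1.62 kb. Csf1r, the receptor of the macrophage growth factor, had 1 at 2.49 and 2.84, and Adgre1 and Spic had none. The counts were 2 of 7 for NK and cytotoxic genes over 1.46 kb, with Klrb1c at 1.59 and 1.34, and 1 of 7 for dendritic cell genes over 4.35 kb, with Zbtb46 at 1.12 and 0.930. Erythroid genes had 2 of 12 over 2.33 kb, with the spectrin gene Sptb at 1.02 and 1.66 and none in Gata1 or Alas2. Megakaryocyte genes had 3 of 8 over 6.16 kb: the ETS factor Fli1, also expressed in lymphocytes and endothelium, held 11 and 10 peaks with a highest of 4.81 and 5.23, and the ATP receptor gene P2rx1 3 in each. Endothelial genes had 1 of 11 over 3.92 kb, Eng at 1.27 and 1.16. The 7 neutrophil genes, over 0.536 kb, and the 13 stromal and organogenesis genes, over 1.59 kb, had none.

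Housekeeping lists with short first introns also had none: 0 of 10 proteasome genes over 2.85 kb, 0 of 7 cell cycle genes over 1.07 kb and 0 of 3 ribosomal protein genes over 0.180 kb. Of the 8 circadian genes, with a median length of 11.6 kb, 3 had a first-intron peak in both animals, Nr1d1 and Rora among them, and Cry2 had none. Immediate early genes had 2 of 6 over 0.742 kb, with Nr4a1 at 1.44 and 1.95 and Btg2 at 1.94 and 1.45. Among genes of other tissues, neuron genes had 1 of 12 over a median of 13.8 kb, which was Dlg4 at 6.33 and 7.73. Rbfox3, over 93.3 kb, and Snap25, over 41.1 kb, had none. Liver genes had 1 of 9 over 1.92 kb and muscle genes 1 of 11 over 2.06 kb. The muscle gene was Ryr2 (2.64 and 2.36), whose own searchable first intron was 155 kb.

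**Figure D5:**
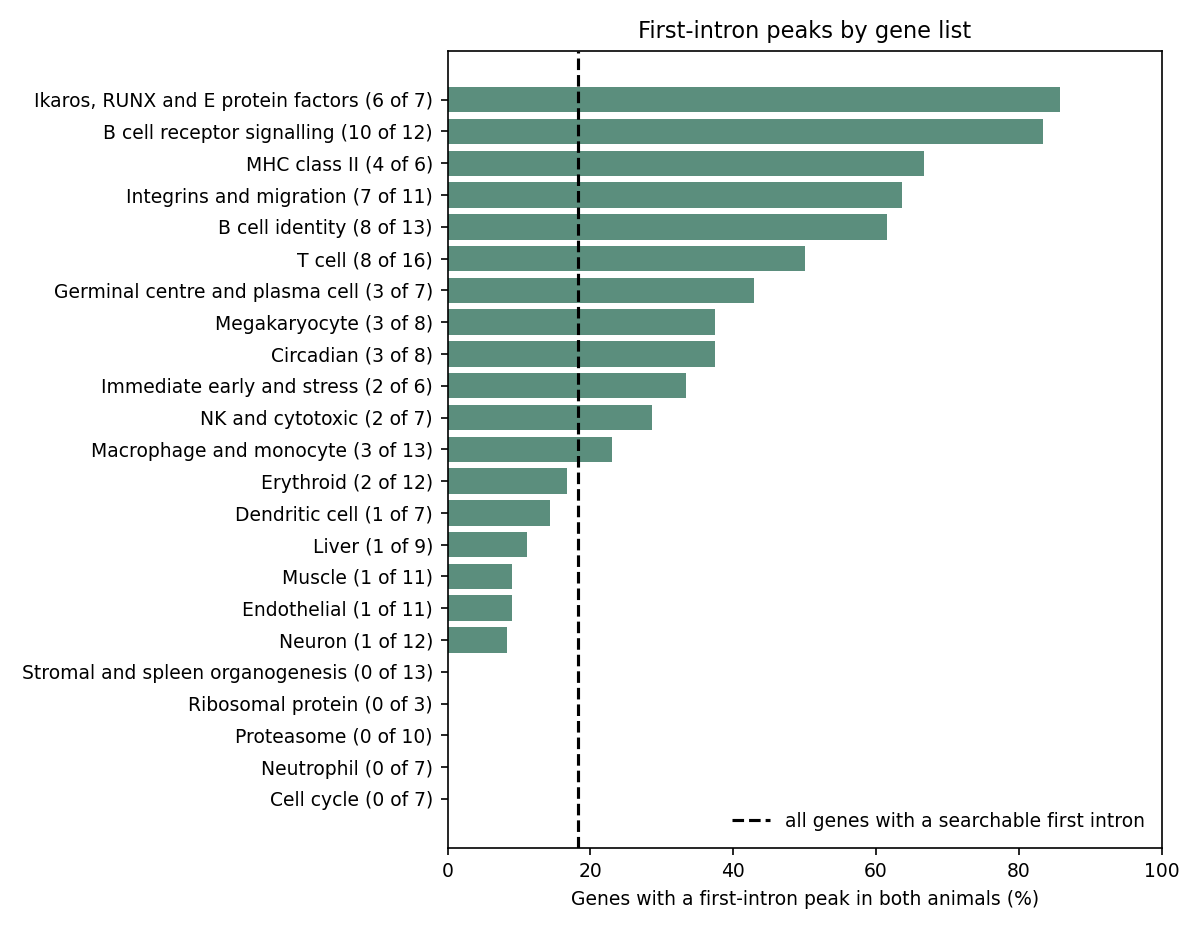
Percentage of genes with a first-intron peak in both animals, of list members with a searchable first intron (counts beside each list name), with a dashed line at 18.3% for all 14042 genes. Lists with fewer than 3 searchable genes are left out. B cell receptor signalling (10 of 12) and the list named for Ikaros, RUNX and E proteins (6 of 7) lie far right of the line, and 5 lists are at 0. Lists differ in intron length, which the bars do not take into account.

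Most first-intron peaks were found in both spleens. Of those in animal 1, 69.5% overlapped a peak of any class in animal 2, and of those in animal 2, 80.7% overlapped a peak in animal 1. Later-intron peaks had 73.1% and 81.4%. Promoter peaks had 85.5% and 82.7%, exon peaks 74.5% and 69.1%, and peaks elsewhere 72.1% and 75.6%. The animal 1 share of first-intron peaks was the lowest of these classes. Matched 1 to 1 and in a first intron in both animals, 4762 peaks correlated between the animals in log2 height at a Pearson r of 0.912 and in rank at a Spearman rho of 0.891, a description across peaks that share 2 libraries. For all matched peaks r was 0.961 and rho 0.945, and for later-intron peaks 0.910 and 0.894. The median log2 ratio of animal 2 to animal 1 was 0.10 for first-intron peaks, 0.20 for later-intron peaks and 0.23 for all 58277 matched peaks.

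A departure of over 2-fold from that overall median was found in 139 matched first-intron peaks (2.92%), against 1.94% of all matched peaks and 2.56% of those in later introns. Of the 139, 119 were relatively higher in animal 1 and 20 in animal 2, beside 879 and 254 of all matched peaks and 190 and 52 in later introns. The overall median lay above that of first-intron peaks, which by itself moves calls toward animal 1. The largest departures toward animal 1 were in Macf1, a cytoskeletal linker (2.05 and 0.706), and Evi2b (3.47 and 1.20), followed by Fhl1, Gm20767 and Asb5. The largest toward animal 2 were in Arhgap6 (0.186 and 0.652) and Cldn34d (0.466 and 1.48), followed by Erich5, Nhs and Sertad2. Among these 10, Evi2b was the tallest in animal 1 and Erich5 (0.501 and 1.51) in animal 2.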

How the data were processed

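DNase-seq was measured in 2 spleen libraries, 1 per animal. Per the deposited file listings, peaks and footprints were derived from each library's own mm10 alignments, not from pooled reads. Which aligner, callers and thresholds were used is not given in the sources used here. As deposited by the authors, each library has 2 peak lists, with the height of each peak as a signal. The longer list was used, and heights were compared as deposited. The deposited footprint files hold positions and another column with a constant value, so footprints were not ranked. The cut-rate files were not used. With 2 libraries, precision is given by the spread between animals.

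Genes were taken from GENCODE M21 on GRCm38.p6, with 21938 protein-coding genes, of which 20012 had an intron in their longest spliced transcript. A midpoint in the first intron of 1 gene and a later intron of a second counted as first. A footprint belonged to a peak when its midpoint lay in it, and peaks matched when they overlapped by 1 bp or more. Sequences are of the C57BL/6J reference, while the mice also carry CAST chromosomes. Matches to 24 consensus strings were counted on both strands.

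The members and the 24 gene lists (383 symbols) were chosen with earlier results of these data known. The peaks and genes named come from the 10 highest matched peaks, the 10 genes with the most peaks, up to 2 list members with the highest peak and up to 2 without one, and the 5 largest departures between animals in each direction. Some genes that the rule selects are not reported here. Printed sequences were limited to peaks of at most 300 bp. Alternatives were the shorter list, a 2 kb limit, start sites of any gene, the longest genomic span, single-class peaks, matched later introns, a 20 kb limit, reproducible peaks, 1 bp footprint overlap, and each animal alone. The classification was tested on simulated peaks. Python 3.11.15, numpy 2.4.6, pandas 2.3.3 and scipy 1.17.1 were used.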

Additional observations from a re-analysis of the deposited data

How the results depend on the processing

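The density ratio stayed above 1 and the footprint difference below 0 under every alternative computed, and the mean height ratio changed direction under 2 of them. With later introns taken only from transcripts with a first-intron peak, the log2 height ratio was -0.081, the footprint difference -2.84 percentage points and the density ratio 1.07. This set is chosen by the first-intron peaks themselves while all first introns are kept, so the classes then come from different sets of transcripts. Within 20 kb of the transcript start, 4238 members gave a log2 height ratio of -0.16, a footprint difference of -4.65, a density ratio of 1.41 and 18.05% of genes with a peak. The shorter list gave 3957 members, a footprint difference of -2.56, a density ratio of 1.40, 15.4% of genes and a within-transcript height difference of -0.027. A limit of 2 kb from start sites gave a footprint difference of -1.001 and a density ratio of 1.36. The longest genomic span gave a log2 height ratio of 0.062 and a footprint difference of -1.53. Peaks found in the other animal gave a density ratio of 1.44, 17.9% of genes and a within-transcript difference of -0.078. The cause of these shifts was not tested. Start sites of any gene, single-class peaks, 1 bp footprint overlap and, chosen after seeing the data, protein-coding transcripts only and leaving out Gm20388 moved no value by more than the SD over the animals, or no count by over 1.5 times. Each animal alone gave 6141 to 7067 members, log2 height ratios of 0.01 to 0.04, footprint differences of -2.12 to -1.77, density ratios of 1.46 to 1.51, 20.4% to 22.6% of genes and within-transcript differences of -0.13 to -0.11. There is 1 group, so no groups could be paired, and the intron classes were paired within each animal.

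With 2 animals of 1 group, the exact sign-flip test cannot reach 0.05, and an SD over 2 values is itself uncertain. The number of cuts behind a height is inferred from its step. The class depends on 1 transcript per gene, so a site in the first intron of another isoform can count as a later intron or a promoter. A consensus match in the reference does not show binding.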

Other observations

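A few genes had many first-intron peaks in 1 animal and few in the other. They were chosen after their values were seen, from the 21 genes whose counts differed by over 5. Sh3gl3, which encodes an endophilin, had 1 peak in animal 1 and 27 in animal 2. The 27 stood between 0.0407 and 0.407, with a median of 0.109, along 27.5 kb, and 6 of them held a footprint. Zfp618 had 0 and 11, the latter between 0.0815 and 0.217 along 5.01 kb. Nfic, a nuclear factor I gene, had 0 and 10, between 0.210 and 0.462 along 4.16 kb. These heights were below the median first-intron peak of animal 2, which was 0.889. The reverse was seen in Stk10, a lymphocyte-enriched kinase, with 14 peaks in animal 1 and 4 in animal 2, and in Galnt2, a glycosyltransferase, with 11 and 2. The highest peak of Stk10 was 7.65 in animal 1 and 7.48 in animal 2. Of genes with a first-intron peak, 1564 had the same number in both animals.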
